A study of Mus musculus with 20 samples.

Results

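C/D box small nucleolar RNAs (snoRNAs) were followed in small RNA libraries of epididymosomes, extracellular vesicles that the epididymis sheds, here collected from its cauda. The members are the features whose name starts with Snord and whose annotated type is snoRNA, in both count tables: 82 of the 76273 features listed in either table. A further 614 and 412 features of the 2 tables carry the same type under other names, such as the H/ACA snoRNAs (Snora), and are not members. The vesicles came from 9-month-old male mice of 2 groups. MSUS males (animals 2, 4, 6, 8 and 14) had lost contact with their mothers at unpredictable times during the 2 weeks (14 days) after birth, 3 h on each day, while the dams were stressed by forced swimming or restraint. Control males (animals 3, 5, 7, 9 and 11) came from undisturbed litters. Sperm were removed by swim-up before ultracentrifugation, and strain and litter are not given in the sources used here. The same library of each animal was sequenced in 2 runs, with and without a selection of fragment sizes meant to enrich miRNAs, so each table holds 5 libraries per group. The labels of the 2 tables conflict with their contents: mature miRNAs made up 52.4 to 72.2% of the counts where no selection is stated, but 10.9 to 17.02% where it is. The tables are called with-selection and without-selection here after their labels, so that which one is higher is known by label only.

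C/D snoRNAs guide the methylation of the ribose 2′ hydroxyl of ribosomal RNA by the protein fibrillarin, and a few of them act in the cleavage of the ribosomal RNA precursor instead. They carry a C box (consensus TGATGA, written in DNA letters) near the 5′ end and a D box (CTGA) near the 3′ end, where the proteins Snu13, Nop58, Nop56 and fibrillarin assemble. Most vertebrate C/D snoRNAs are cut out of introns of host genes, many of which encode ribosomal proteins or translation factors or are noncoding, and they reside in nucleoli. Shorter fragments of them are known from many cell types. The files give counts per RNA without read lengths, so a whole snoRNA and a fragment of it cannot be told apart, and in vesicles fewer vesicles and less RNA per vesicle cannot be told apart either.

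The sequences below are those on which the results turn: 2 of the members with the most counts (Snord83b and Snord49a), those that stood relatively highest (Snord2, Snord95, Snord52) and lowest (the Snord14 copies) in the with-selection table against the other, Snord96a as the host-gene partner of Snord95, and Snord118, which has a gene of its own. Capitals mark TGATGA where it starts within the first 25 bases and the last CTGA within the last 25 bases, read on the RNA's own strand. They are transcript sequences of GENCODE vM21 on GRCm38, 5′ to 3′ in DNA letters.
Snord83b: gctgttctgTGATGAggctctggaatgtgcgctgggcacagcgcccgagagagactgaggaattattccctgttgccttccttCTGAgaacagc
Snord49a: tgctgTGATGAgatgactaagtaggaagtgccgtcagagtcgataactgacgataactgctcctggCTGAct
Snord2: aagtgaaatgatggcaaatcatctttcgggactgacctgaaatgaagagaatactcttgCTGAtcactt
Snord95: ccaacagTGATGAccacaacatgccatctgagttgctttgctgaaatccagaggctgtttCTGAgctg
Snord96a: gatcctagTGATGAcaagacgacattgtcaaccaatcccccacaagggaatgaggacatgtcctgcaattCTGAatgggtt
Snord52: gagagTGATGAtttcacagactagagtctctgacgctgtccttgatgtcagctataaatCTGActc
Snord14c: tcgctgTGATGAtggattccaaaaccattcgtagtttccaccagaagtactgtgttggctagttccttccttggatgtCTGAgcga
Snord14d: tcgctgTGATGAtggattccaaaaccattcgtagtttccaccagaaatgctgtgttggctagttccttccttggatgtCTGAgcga
Snord14e: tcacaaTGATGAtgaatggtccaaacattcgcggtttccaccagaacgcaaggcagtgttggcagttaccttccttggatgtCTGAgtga
Snord118: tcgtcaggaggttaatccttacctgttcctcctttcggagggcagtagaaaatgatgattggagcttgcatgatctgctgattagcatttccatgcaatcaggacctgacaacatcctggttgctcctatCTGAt

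Of the 82 members, 54 (65.9%) held TGATGA in the first 25 bases and 81 (98.8%) held CTGA in the last 25. Among the 40 Snora genes of the same annotation, the class with other boxes, the counts were 0 (0%) and 5 (12.5%). Snord2 and Snord118 are among the members without TGATGA in that window, as their sequences above show.

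The members were 64 to 238 nt long (median 79.5 nt) and lay on 17 chromosomes. GENCODE vM21 places 79 of the 82 inside a gene on the same strand, in 54 host genes in all: 21 members in ribosomal protein genes, 35 in other protein-coding genes and 23 in noncoding genes. The other three are Snord118, Snord13 and Snord104. For 40 members at least 1 host transcript has an exon over the snoRNA, as in transcripts with a retained intron. The other members with a host are intronic in every host transcript over them. Snord83b (chr15:80078498-80078591, minus strand, 94 nt) is intronic in the ribosomal protein gene Rpl3. Snord49a (chr11:62603450-62603521, plus strand, 72 nt) is intronic in the noncoding gene 2410006H16Rik.

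Some members are copies or near-copies of others. Snord14c and Snord14d (chr9:40803583-40803668 and chr9:40803995-40804080, plus strand, both in introns of the chaperone gene Hspa8 with an exon of 1 of 4 host transcripts over each) are 86 nt long and differ by G47A and A49G, with positions counted from 1 at the 5′ end and the Snord14c base first. Their counts differed by at most 15 in any with-selection library and by at most 1 in any without-selection library, so they are read as 1 signal. Snord50a and Snord50b differ by C50A, were counted apart (by up to 1509 counts in a with-selection library), and each had exactly the values of a second feature with the same sequence (Gm24463 and Gm26135). Snord88a and Snord88c differ at 5 positions (C8T, T9C, C16T, A42G and T88C) and had separate counts too. Snord116l1 and Snord116l2 are identical to each other and to further genes, 29 other genes in all for each, and each had the values of 30 other features in the with-selection table, so that its count is a small part of a divided signal. In all, 49 members of the with-selection table and 47 of the other had values that were not whole, which marks reads divided among features.

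C/D snoRNAs were a small part of the vesicle RNA in both tables, and the libraries of a group differed more than the groups did. In the with-selection table they took 1.49, 1.88, 1.42, 3.74 and 2.75% of the counts of Control 3, 5, 7, 9 and 11, and 2.73, 1.58, 1.95, 0.614 and 3.15% of those of MSUS 2, 4, 6, 8 and 14. Control 9 and MSUS 14 stood highest in their groups and MSUS 8 lowest of all, and the groups overlapped. The means were 2.25 ± 0.984% in Control and 2.00 ± 0.993% in MSUS (SD, n = 5 each; exact two-sided permutation p = 0.714). In the without-selection table the shares were 0.410, 0.304, 0.367, 0.835 and 0.661% in Control and 0.741, 0.646, 0.522, 0.296 and 0.479% in MSUS, in the same order of animals. Control 9 and MSUS 2 stood highest in their groups, and the means were 0.515 ± 0.224% and 0.537 ± 0.169% (exact two-sided permutation p = 0.865). With 5 against 5 libraries the smallest possible p is 0.00794.

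**Figure D1:**
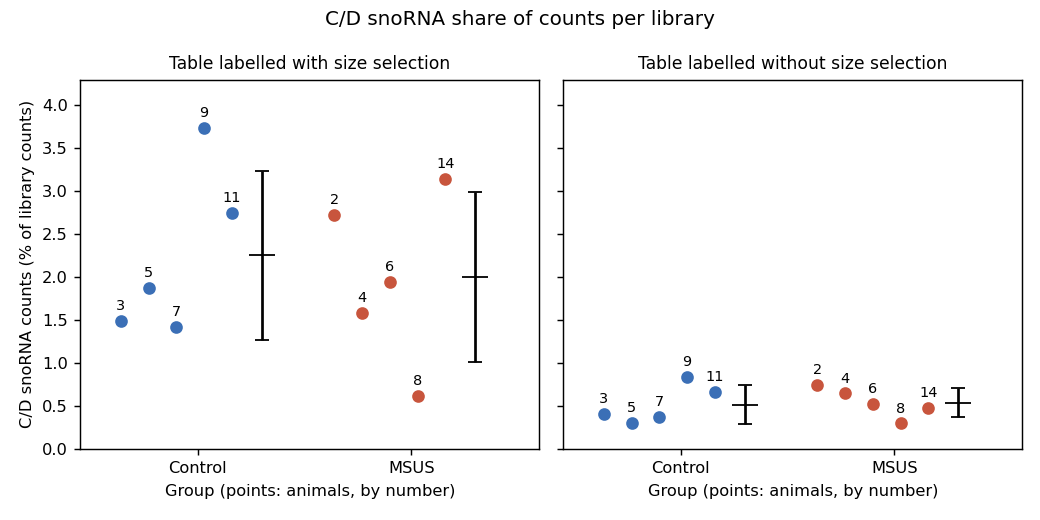
Percent of each library's counts on C/D snoRNAs (y axis) in the with-selection (left) and without-selection table (right), by group. Points are animals with their numbers, and bars are the mean and SD of 5 libraries. The groups overlap in both panels, and every animal is higher on the left, with means of 2.13% against 0.526% over 10 animals.

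The total counts behind these shares ran from 1872084 to 3647956 per library in the with-selection table and from 215231 to 871461 in the other, and the C/D snoRNA counts from 16409.2 to 133391 and from 701.6 to 5757.5. The Wilson 95% intervals of the shares were within 0.0201 and 0.0362 percentage points of the values in the 2 tables and cover counting error only. Control 9, Control 11 and MSUS 14 had the lowest tRNA shares of the with-selection table (14.5, 25.3 and 23.8%, against 34.6 to 66.0% in the other libraries) and the highest C/D snoRNA shares of it. Taken outside tRNA and rRNA, the C/D snoRNA share was 3.26 ± 0.840% in Control and 3.54 ± 1.07% in MSUS (exact permutation p = 0.659), so its difference turned from negative to positive. Among markers of cell types whose RNA the vesicle preparation could hold, summed transcripts of epididymal epithelium (13 of 16 genes listed in the with-selection table; Lcn9, Defb15 and Spint5 not listed) ranged from 18145 to 28168 CPM (counts per 1000000 of the library total) in Control and from 6238 to 15167 in MSUS. Those of sperm and spermatids (15 of 15) ranged from 309 to 563 and from 258 to 573, those of blood cells (10 of 10) from 110 to 263 and from 46.1 to 189, and those of muscle and stroma (12 of 12) from 374 to 1187 and from 179 to 1218. The epithelial sums of the groups did not overlap, and how many features in all did so on this scale was not counted. On library size alone, only 2.53% of the 10998 tested features were higher in MSUS. Akr1b7 was by far the highest tested epithelial gene, with 15478 and 11649 CPM in Control and MSUS as scaled below. Crisp1 came next, with 2049 and 1995 CPM. The part of these sums in the snoRNA results was not tested.

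The counts of the class were spread over many members. In the with-selection table the 3 members with the most counts, Snord83b, Snord49a and Snord55, held 21.2% of all C/D snoRNA counts and the top 10 held 50.8%. In the without-selection table the top 3 by counts held 28.6% and the top 10 held 56.8%. At least 1 count was found in every library for 76 members of the with-selection and 54 of the without-selection table, and 2 and 4 members reached 1 count in no library. Levels of single RNAs are given as CPM of the library size scaled by TMM, the trimmed mean of M values over all features, within a table.

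Snord83b was first among single members in both tables. Snord14c and Snord14d, read as 1 signal, summed to 836 CPM in the without-selection table, above the 784 CPM of Snord83b. Its level in the with-selection table was 1153, 1460, 1320, 1341 and 1594 CPM in Control 3, 5, 7, 9 and 11 and 2672, 2260, 2029, 1432 and 1859 CPM in MSUS 2, 4, 6, 8 and 14. Control libraries lay close together, MSUS 2 stood highest, and MSUS 8 lay among the Control values. In the without-selection table it was at 728, 368, 528, 470 and 922 CPM in Control and at 1511, 1069, 944, 667 and 632 CPM in MSUS, again with MSUS 2 highest and the groups overlapping. Snord55 averaged 960 ± 201 CPM in Control and 1676 ± 709 in MSUS with-selection libraries (SD, n = 5 each) and 437 ± 145 and 690 ± 308 CPM in the others. Snord49a averaged 1345 ± 256 and 1706 ± 448 CPM, and 252.3 ± 125 and 300 ± 98.5 CPM. Per 100 nt of annotated length Snord49a led the first table with 2119 CPM, ahead of Snord83b with 1821 CPM. Their values in single libraries overlapped, so the order of these neighbours is not resolved beyond their spread.

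The other leading members of the with-selection table were Snord2 (in the translation initiation factor gene Eif4a2), Snord49b, Snord80 (in the noncoding gene Gas5), Snord82 (in the nucleolin gene Ncl), Snord50a, Snord66 (in Eif4g1) and Snord104, with means from 1197 CPM (Snord2) down to 556 CPM (Snord104). In the without-selection table Snord14d and Snord14c (418 CPM each, 1 divided signal that fills 2 places), Snord96a (231 CPM), Snord118 (198 CPM) and Snord13 (136 CPM) took places among the first 10, beside Snord83b, Snord55, Snord49a, Snord104 and Snord82. The order of all 82 members correlated between the tables with Spearman's rho 0.764 (Pearson's r 0.825 on log2 CPM + 1), a description over members whose reads come from the same 10 libraries.

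**Figure D2:**
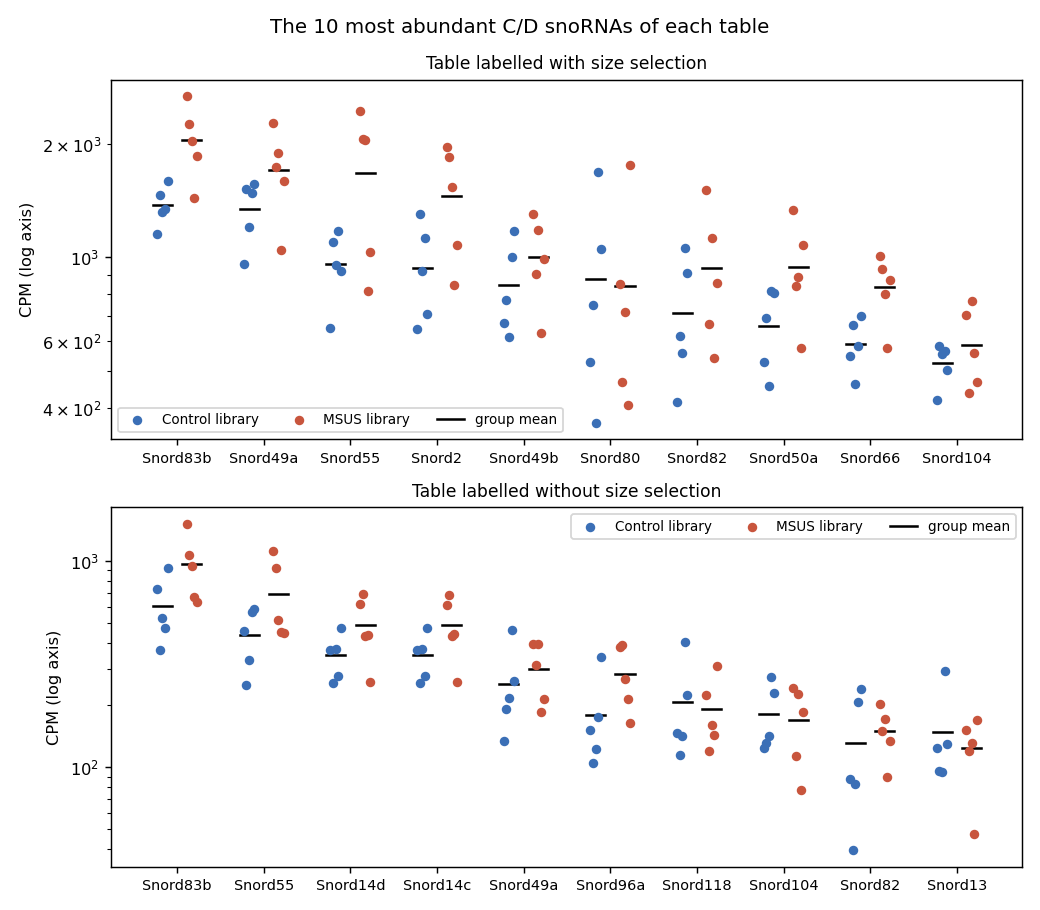
Level in CPM (log axis) of the 10 most abundant C/D snoRNAs of the with-selection (top) and without-selection table (bottom). Points are single libraries, 5 per group, and black lines are group means. The groups overlap for every member shown, and Snord80 spans from 365 to 1754 CPM within the upper panel.

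Members differed in how evenly they were found among animals of a group. Over the 72 members tested in the with-selection table, the coefficient of variation among Control libraries ran from 11.7% (Snord88c) to 59.3% (Snord80), with a median of 27.2%. Snord83b (12.01%) and Snord14c (12.5%) were among the steadiest. Snord80 was at 529, 747, 365, 1682 and 1053 CPM in Control and at 848, 468, 718, 407 and 1754 CPM in MSUS. Its high values were those of Control 9, Control 11 and MSUS 14, the libraries of low tRNA share. The median over 37 tested members of the without-selection table was 40.8%, where the C/D counts per library were lower.

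The first comparison asked whether C/D snoRNAs of the vesicles differed between MSUS and Control males, which bears on the study's question of whether early stress alters vesicle RNA in adulthood. Of the with-selection table, 69 of the 72 tested members had a positive log2 fold change (MSUS over Control, TMM scaling over all features), with a median of +0.37 against −0.00 over all 10998 features. None of them passed the edgeR quasi-likelihood test (0 of 72 at a Benjamini-Hochberg adjusted p of 0.05), as for all features (0%). At an unadjusted p under 0.05, 22 of 72 were higher in MSUS, where 3.46% of all features were higher, and 0 were lower, where 2.32% were. No member had all 5 MSUS libraries above all 5 Control libraries, which held for 0.391% of features. DESeq2 called 3 members higher (Snord83b, Snord95 and Snord52, adjusted p = 0.0362 for Snord83b and Snord95), against 0.291% of all features.

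The sign of these fold changes depended on the scaling. With library size alone, 8 of 72 members were positive (median −0.25) while the median of all features moved to −0.58. Scaled by miRNAs, 13 were positive (median −0.19, all features −0.52), and scaled by C/D snoRNAs themselves, 39 were (median +0.01, all features −0.34). Both used the total of the class with TMM over its features. C/D scaling thus centres the members, and a near-even split of their signs is built in. Set against the median of all features, the members' median stood 0.37, 0.33, 0.33 and 0.35 higher under TMM, library size, miRNA and C/D scaling. A change of scaling shifts the log2 values of all features by nearly the same amount. The likeness of these differences is thus almost fixed in advance, and they count as a single observation, not as repeated support. Unadjusted p-values under 0.05 numbered 0 with library size, 0 with miRNA scaling and 1, higher in MSUS, with C/D scaling. Of all 10998 features, 3, 17 and 7 were higher at that p, and 2323, 1951 and 1560 were lower. On the TMM scale, 14 of 14 tested sperm and spermatid transcripts (median +0.42) and 10 of 11 muscle and stroma transcripts (median +0.37) were also positive, as were 3 of 3 blood ones (median +0.20) and 3 of 6 epithelial ones (median +0.03), and 0 in any list passed the edgeR test. Their part in the snoRNA values was not tested.

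Single libraries moved the number of members at an unadjusted p under 0.05. It became 9 without MSUS 2 and 36 without Control 9, all higher in MSUS. Over all features, 350 of 11541 and 460 of 10950 were higher at that p in these fits. Without Control 9, Control 11 and MSUS 14, 71 of 71 tested members were positive (median +0.66) and 54 had an unadjusted p under 0.05, all higher in MSUS, where 6.26% of features did. None of these 71 passed the edgeR adjusted threshold. The libraries left out had the highest C/D snoRNA shares of the table, Control 9 and Control 11 being the highest of Control. Leaving them out thus favours higher values in MSUS.

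**Figure D3:**
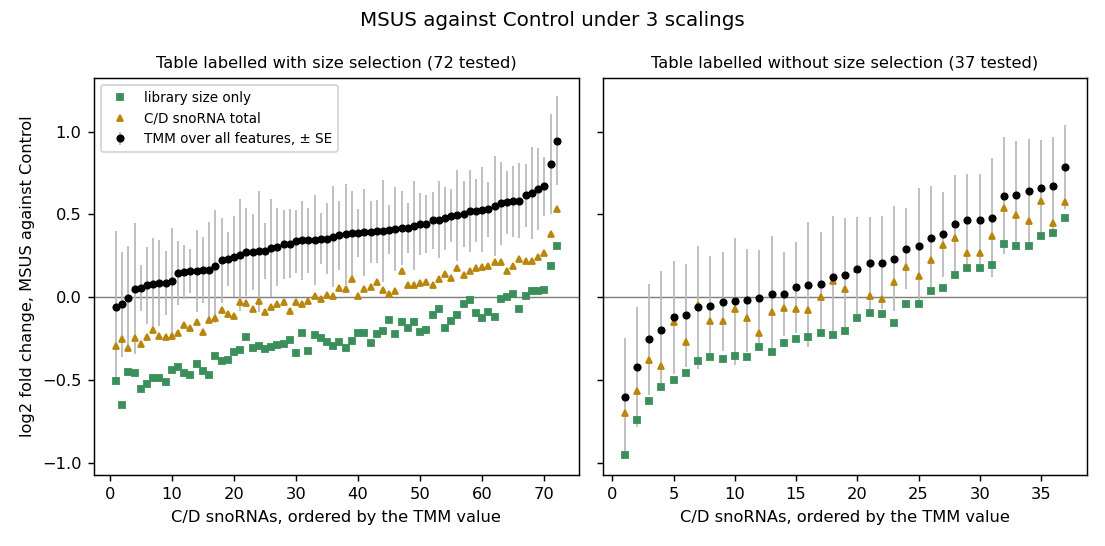
Log2 fold change of each tested C/D snoRNA, MSUS against Control (y axis), ordered by its value under TMM scaling (x axis), for 72 members (left) and 37 members (right). Black points with SE bars use TMM over all features, green squares library size and yellow triangles the C/D snoRNA total with TMM over the members. On the left 69 members are positive under TMM and 8 with library size, so the set shifts with the scaling.

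Snord95, in an intron of the ribosomal scaffold gene Rack1 with an exon of 2 of 3 host transcripts over it (chr11:48803139-48803206, plus strand), had the largest fold change. Its levels were 163, 231, 238, 304 and 197 CPM in Control and 706, 387, 536, 291 and 264 CPM in MSUS. MSUS 2, 4 and 6 lay above every Control library and MSUS 8 and 14 among them, and the log2 fold change was +0.95 (SE 0.27, edgeR unadjusted p = 0.00302, adjusted p = 0.839). It was positive under library size (+0.31) and C/D scaling (+0.53) too, the latter with the only unadjusted p under 0.05 of that scaling (0.0318, edgeR). Snord88a was at 30.5, 39.6, 44.8, 35.5 and 31.2 CPM in Control and at 71.3, 55.2, 73.6, 53.7 and 35.9 CPM in MSUS (log2 +0.67, SE 0.18, edgeR adjusted p = 0.839). Here 4 of 5 MSUS libraries were above all Control values. Snord67, in the microtubule gene Ckap5, averaged 43.9 ± 9.34 and 64.5 ± 12.5 CPM (log2 +0.53, SE 0.16, edgeR adjusted p = 0.839), and its sign turned to −0.09 with library size. These were chosen for their small p, so their values add no support.

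The members with negative values lay near 0. Snord80 (−0.06, SE 0.46), Snord35a (−0.04, SE 0.32) and Snord37 (−0.01, SE 0.32) were the only ones below 0 on the TMM scale. Snord37, in the elongation factor gene Eef2, was at 519, 556, 253, 686 and 752 CPM in Control and at 526, 517, 440, 303 and 963 CPM in MSUS, with MSUS 14 highest. Each of these 3 turned positive without the 3 libraries of low tRNA share (+0.16, +0.74 and +0.02), and each had 1 or more single animals whose removal did the same.

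Of the without-selection table, 25 of 37 tested members were positive, with a median of +0.13 against +0.01 over 1075 features. The edgeR test passed 0 of 37, as of all features (0%). At an unadjusted p under 0.05, 3 were higher in MSUS (background 3.53%) and 0 lower (background 4.37%), and no member had all MSUS libraries above all Control libraries (0% of features). With library size alone 12 of 37 were positive (median −0.20, all features −0.30). The 3 became 1 without Control 7, MSUS 2 or MSUS 4, 2 (1 higher and 1 lower) without Control 5, 5 without MSUS 8, 6 without Control 11 and 8 without MSUS 14 (6 higher and 2 lower). Over all features, the numbers higher in these fits ran from 30 of 1215 (without MSUS 8) to 94 of 1111 (without MSUS 14). Lower were 48 of 1175 without Control 5 and 60 of 1111 without MSUS 14. Without Control 9, Control 11 and MSUS 14 together, 33 of 35 were positive (median +0.64). At that p, 20 were higher, where 9.35% of features were. Those 3 were picked by their with-selection tRNA shares, and Control 5 had the lowest here (6.20%). Control 9 and Control 11 had the highest C/D snoRNA shares of Control here too.

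Snord61, in the X-linked splicing factor gene Rbmx, had the smallest p there. It was at 103, 82.2, 94.5, 93.5 and 91.5 CPM in Control and at 197, 236, 149, 143 and 88.3 CPM in MSUS (log2 +0.78, SE 0.25, edgeR adjusted p = 0.554). Control libraries differed little, 4 MSUS libraries lay above them and MSUS 14 among them. Its with-selection values averaged 396 ± 98.1 and 593 ± 151 CPM (log2 +0.58, SE 0.22). Snord83b (+0.67, SE 0.30) and Snord87, in the noncoding gene Snhg6 (+0.66, SE 0.29), followed. On the other side stood Snord67 (−0.61, SE 0.36), Snord88c (−0.42, SE 0.36) and Snord13 (−0.25, SE 0.34). Snord95, with 0 to 30.6 CPM per library, was below the filter on low counts there, with means of 7.56 ± 5.14 CPM in Control and 15.2 ± 9.57 in MSUS.

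The MSUS effect was then compared between the tables. No member passed the interaction test (0 of 72, edgeR with animal as block, 0% of 8109 features), and 2 had an unadjusted p under 0.05 with the higher effect in the with-selection table, where 2.31% of features did. The smallest p-values were those of Snord67 (difference of log2 effects +0.96), Snord88c (+0.77) and Snord71, in the adaptor protein gene Ap1g1 (+0.34). Snord67 averaged 47.9 ± 22.6 CPM in Control and 28.3 ± 16.0 in MSUS without-selection libraries, against the higher MSUS mean given above for the other table.

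Members linked to processing of the ribosomal RNA precursor were taken as a list. It held Snord118 (U8, needed for maturation of the 5.8S and 28S RNAs). It also held Snord13 (U13), Snord14 copies (U14) and Snord22 (U22), which are linked to the 18S side. The tables hold 7 such members. Of these, 6 were tested in the with-selection table, 6 were positive (median +0.34) and 0 passed, with 0 of 6 positive on library size. Tested in the without-selection table were 5, of which 2 were positive (median −0.01) and 0 passed. Those 2 are Snord14c and Snord14d, which are 1 signal. Snord22, in the noncoding gene Snhg1, had the smallest p in the first table (38.0 ± 7.69 and 54.3 ± 13.5 CPM, log2 +0.48, SE 0.19) and Snord14c in the second (350 ± 87.0 and 486 ± 168 CPM, log2 +0.46, SE 0.28). Snord118 (chr11:69073427-69073561, plus strand, 135 nt) was at 165, 187, 161, 317 and 220 CPM in Control and at 375, 224, 250, 257 and 257 CPM in MSUS in the with-selection table, with Control 9 highest in its group. In the other it was at 146, 115, 142, 404 and 222 CPM and at 225, 119, 160, 143 and 308 CPM, again with Control 9 highest, and the log2 value was −0.12 (SE 0.34) and turned to +0.27 without Control 9.

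The snoRNAs of Rpl13a introns (Snord32a, Snord33, Snord34 and Snord35a) have been described elsewhere as responding to metabolic stress in cultured cells. Here all 4 were tested in the with-selection table, 3 were positive (median +0.18), 0 on library size, and 0 passed. Of the 2 tested in the other table, 1 was positive and 0 passed. Snord34, with the smallest p in both, averaged 146 ± 55.6 and 179 ± 69.0 CPM (log2 +0.30, SE 0.30), and 90.1 ± 39.9 and 114 ± 56.0 CPM (log2 +0.31, SE 0.35). The host mRNA Rpl13a averaged 94.7 and 101 CPM with a log2 value of +0.08 (SE 0.13) in the with-selection table.

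Of Gas5, a noncoding host gene of many C/D snoRNAs, the tables hold 3 (Snord47, Snord78 and Snord80). Of the 2 tested in each, 1 was positive and 0 passed. Snord47 averaged 341 ± 122 and 433 ± 136 CPM in the with-selection table (log2 +0.35, SE 0.27) and 57.6 ± 18.6 and 61.5 ± 19.6 CPM in the other (log2 +0.06, SE 0.27). Snord78 averaged 1.09 counts per with-selection library. The 4 members of the imprinted Snrpn region (Snord64, Snord107, Snord116l1 and Snord116l2), whose relatives are known from brain, summed to between 2.11 and 12.7 counts per with-selection library and at most 1.5 per other library, the Snord116 copies with their divided counts only, and none was tested. The list of the imprinted Dlk1-Dio3 region had 0 members here.

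Proteins of the C/D snoRNP and of its assembly were looked at as fragments of their mRNAs. Of 15 gene names listed, where Nhp2l1 is an older name of Snu13, 11 were tested in the with-selection table. Of these, 7 were positive (median +0.06), 0 were on library size, and 0 passed the edgeR test. The mean of Fbl, encoding the methyltransferase fibrillarin, was 4.47 CPM in Control and 5.79 in MSUS (log2 +0.40, SE 0.20), and that of Nop58 13.8 and 14.3 CPM (log2 +0.03, SE 0.18). None was tested in the other table. Their summed level was 77.4 to 164 CPM of the library total in Control and 40.7 to 130 in MSUS with-selection libraries.

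The largest differences were between the tables of the same animals. All 10 animals had a higher C/D snoRNA share in the with-selection table, with means of 2.13 ± 0.941% and 0.526 ± 0.188% (SD, n = 10; exact two-sided sign-flip permutation p = 0.00195, the smallest possible). Of 69 members tested across the tables, 38 were higher there (edgeR adjusted p under 0.05, all features 19.9%) and 12 lower (all features 18.8%). The median log2 difference was +0.83 against +0.06 over 5725 features. The filter on low counts could be passed through 1 table alone, and only 37 members passed it within the without-selection table. Members low there thus entered through the table where they were high, which favours calls of higher. Library size gave 57 higher and 4 lower, where 4211 of 5725 features were higher and 421 lower. Scaling by miRNAs gave 69 higher and 0 lower, where 5442 of 5725 features were higher and 17 lower. C/D scaling, by the members' own total with TMM over the members, shows how the class was made up. It centres the members, so a near-even split of higher and lower is built in. It gave 26 higher (all features 1.76%) and 30 lower (all features 70.2%). The members thus differed from each other between the tables by more than the spread between libraries.

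At the upper end stood Snord2, Snord95 and Snord52. Snord2 took 4.73, 7.58, 6.51, 5.03 and 3.43% of C/D snoRNA counts in Control and 6.39, 8.23, 6.21, 5.57 and 4.75% in MSUS with-selection libraries. In the other table its share was 0.185, 0.283, 0.232, 0.390 and 0.686% in Control and 0.125, 1.62, 0.603, 0.926 and 0.322% in MSUS. Every with-selection value was above every other value, and the log2 difference was +4.34 (SE 0.34) on the TMM scale and +3.34 (SE 0.32) within the class. Snord95 (+3.94, SE 0.27) and Snord52, in the noncoding gene 1110038B12Rik (+3.90, SE 0.25), averaged 1.58% and 1.21% of C/D counts in the with-selection table. In the other they averaged 0.187% and 0.136%. The without-selection counts per library were few for each of them: 2 to 39.5 (Snord2), 0.333 to 11.75 (Snord95) and 0 to 14.5 (Snord52).

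At the lower end stood the Snord14 copies of Hspa8. Snord14c took 0.918, 0.706, 1.02, 0.469 and 0.683% of C/D snoRNA counts in Control and 0.507, 0.946, 0.718, 1.13 and 0.399% in MSUS with-selection libraries. In the other table it took 8.22, 8.07, 8.87, 4.21 and 7.09% in Control and 6.84, 9.31, 6.79, 10.5 and 4.93% in MSUS. No value of the first table reached the lowest of the other, and Control 9 and MSUS 14 were lowest of their groups in both. The log2 difference was −2.34 (SE 0.19) for Snord14c, −2.33 (SE 0.19) for Snord14d, which shares its reads, and −1.71 (SE 0.15) for Snord14e. These turned positive when scaled by miRNAs (+0.83, +0.84 and +1.49), where the median of all features was +3.24. The next were Snord8 (−1.51, SE 0.15), Snord23 (−1.34, SE 0.22) and Snord13 (−1.26, SE 0.24), and Snord118 was at −0.57 (SE 0.21). Snord8, Snord23, Snord13 and Snord118 were named after their values were seen, and are positive under miRNA scaling, as all 69 were.

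**Figure D4:**
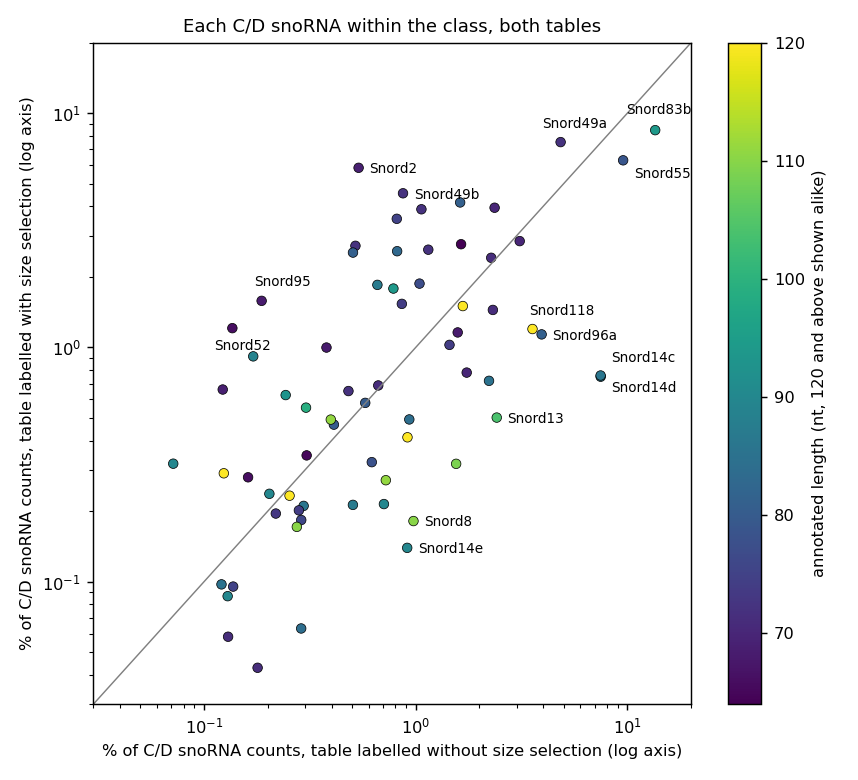
Mean percent of C/D snoRNA counts of each of 69 members in the without-selection (x, log axis) and with-selection table (y, log axis), over 10 animals. Colour gives the annotated length and the line marks equal shares. Snord2, Snord95 and Snord52 lie above the line, and the Snord14 copies, Snord8 and Snord13 below it.

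Shorter members tended to lie above the line. Over the 69 members, the log2 difference under C/D scaling correlated with annotated length at Spearman's rho −0.37 (Pearson's r −0.22, and −0.30 without Snord17, the longest at 238 nt). With GC content it correlated at rho −0.39 (r −0.36). Both are descriptions over members of the same libraries. The 27 members of 64 to 74 nt had a median of +0.57 with 14 higher and 7 lower, the 22 of 75 to 89 nt a median of −0.69 with 7 higher and 12 lower, and the 20 of 90 nt or more a median of −0.77 with 5 higher and 11 lower. Length left wide ranges in each class, from −2.08 to +3.34 in the first. On the TMM scale the medians were +1.63, +0.34 and +0.29.

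Members of the same host gene, which are cut from the same primary transcript, did not move together in several cases. The widest gap was in Rack1, where Snord95 stood at +2.91 (SE 0.26) and Snord96a at −1.88 (SE 0.23). This is a spread of 27.7-fold under C/D scaling, and Snord95 had few without-selection counts, as given above. Snord96a (chr11:48802032-48802112, plus strand, 81 nt) took 3.36, 3.29, 2.85, 2.69 and 5.12% of C/D counts in Control without-selection libraries and 1.28, 1.14, 0.955, 1.17 and 1.34% in the with-selection libraries of the same animals. In Rpl13a, Snord32a stood at +1.51 (SE 0.24) and Snord33 at −2.25 (SE 0.26), with Snord34 and Snord35a between them. In Rpl23a the gap from Snord4a to Snord42b was 10.0-fold, and in Rps3 that from Snord15b to Snord15a was 5.09-fold. Without-selection counts per library were few here as well, so these gaps are loosely measured. They were 2 to 21 for Snord33, 1 to 7 for Snord4a, 0 to 9.5 for Snord42b and 0 to 8.33 for Snord15a. By contrast, the gap was 1.60-fold among the Snord14 copies of Hspa8, whose sequences are alike, 1.47-fold in Gas5 (Snord47 and Snord80) and 1.32-fold in Nop58 (Snord70 and Snord11). Over the 12 host genes shown, each with 2 or more tested members (29 members), the median spread (highest minus lowest) was 1.36 on the log2 scale. The SD over all 69 members was 1.58, which is an unlike measure. Whether members of the same host lay closer than others was not tested.

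**Figure D5:**
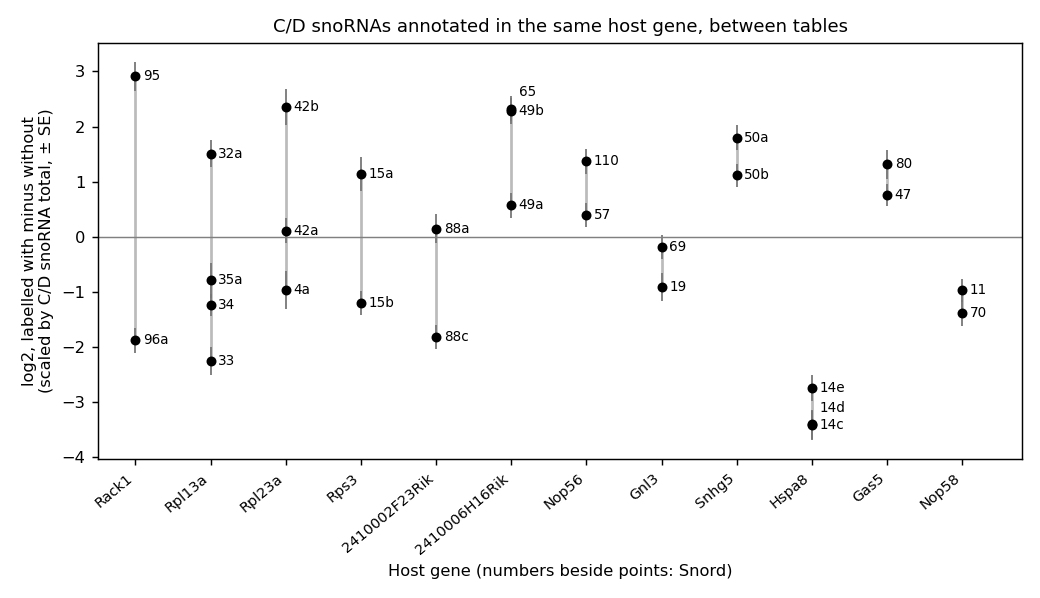
Log2 difference between the tables (with minus without, y axis, bars are SE) for members that share 1 of 12 host genes (x axis). Values are scaled by the C/D snoRNA total with TMM over the members, and hosts are ordered by the spread within them. Grey lines join the lowest and highest member. Rack1 and Rpl13a hold members on both sides of 0, while the Hspa8 copies all lie below it.

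Pairs of similar name behaved in different ways. Snord49a and Snord49b, both of 72 nt in 2410006H16Rik, differed by 1.71 in that log2 value (+0.57 and +2.28). Snord49b took 4.05 to 5.66% of C/D counts over the 10 with-selection libraries and 0.515 to 1.32% over the others, while Snord49a took 6.64 to 8.80% and 2.96 to 7.02%. Snord88a (+0.14) and Snord88c (−1.82), which differ at the 5 positions given above, were 1.96 apart. Snord50a (+1.80) and Snord50b (+1.11), with their single difference, were 0.69 apart.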

How the data were processed

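The authors deposited 2 tables of estimated counts, 1 row per annotated RNA, with fractions where reads were divided. The submitters' processing notes name GRCm38, STAR and edgeR. The counting program is not named in the sources. Columns were matched to animals through the labels. The column names fit both runs, and the table was taken from its label. Counts were rounded to whole numbers, which took away 0.0504 to 0.0992% of a library's counts in the with-selection table (so named after its label) and 0.266 to 0.689% in the without-selection table.

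Groups were compared within a table with edgeR 4.0.16 in R 4.3.3 (filterByExpr, TMM, robust quasi-likelihood test, Benjamini-Hochberg adjustment over all features tested, threshold 0.05), tested on simulated data. SE came from the F statistic. Between tables all 20 samples were fitted with condition as a covariate, and the interaction used animal as a block. Per the labels, a number is 1 animal in both tables. Deviations of 37 members from the group means correlated at 0.105 to 0.646 (median 0.375) between the 2 samples of each of 10 animals. For 6 of the 10 the best match was the animal's own sample, so the pairing rests on the labels. No 2 libraries agreed within sampling noise over all features (smallest chi-square per degree of freedom 4.49). Litters are not given, so that p-values rest on the spread among these males. Alternatives were DESeq2 1.42.0, other scalings, no filter, each animal left out, and the 3 libraries of low with-selection tRNA share left out. Transcript sequences and host genes are from GENCODE vM21.

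Members and lists were chosen with earlier results of these data known. Named members are the 10 of highest mean CPM per table, the 3 of smallest unadjusted p per direction and table, the 3 largest calls per direction between tables with at least 10 CPM in the higher table, the 3 smallest interaction p, and the member of smallest p of each list. One host gene and 2 member sequences are not reported here.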

Additional observations from a re-analysis of the deposited data

Results flagged for a closer look

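One value of 1 library stood apart from its group among 72 groups of 5 libraries examined, where chance gives about 1 in 20. Snord13 in the table labelled without size selection was at 293 CPM in Control 9, against 94.5 to 130 CPM in the other Control libraries. Its log2 fold change of MSUS against Control was −0.25 with that library and +0.17 without it.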

How the results depend on the processing

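The counts of members past the edgeR threshold for MSUS against Control and for the interaction were 0 and remained 0 under each alternative run, except 3 by DESeq2 and 1 without the filter on low counts (Snord95), both in the with-selection table. The comparison between tables passed 50 members, 56 with the replicate block (43 higher and 13 lower) and 48 to 51 when single animals were left out. The interaction without the replicate block also gave 0, and the block changed no other call. The difference of C/D snoRNA shares (MSUS minus Control, percentage points) was −0.25 in the with-selection table, with a range of −0.54 to +0.12 when single animals were left out, +0.28 outside tRNA and rRNA and +0.12 without the 3 libraries of low tRNA share. In the other table it was +0.022, ranged from −0.031 to +0.10, and was +0.039 outside tRNA and rRNA, −0.012 counts per 100 miRNA counts and +0.19 without the 3 libraries. In both tables its sign is not settled. Between tables the difference ranged from 1.46 to 1.74.

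With library size only, 8 of 72 members were positive in the with-selection table, against 69. Among the named members, signs (log2) turned as follows. With library size only: Snord104 −0.45, Snord22 −0.19, Snord34 −0.30, Snord47 −0.23, Snord49a −0.22, Snord49b −0.33, Snord50a −0.019, Snord66 −0.041, Snord67 −0.091 and Snord82 −0.20. Scaled by miRNAs: Snord104 −0.36, Snord22 −0.067, Snord34 −0.24, Snord47 −0.19, Snord49a −0.15, Snord49b −0.26, Snord67 −0.014 and Snord82 −0.15. Scaled by C/D snoRNAs: Snord104 −0.21, Snord34 −0.059, Snord49a −0.039 and Snord49b −0.11. Without the 3 libraries: Snord35a +0.74, Snord37 +0.017 and Snord80 +0.16. Snord35a was +0.033 by DESeq2. With single animals left out, Snord35a ranged from −0.19 to +0.33, Snord37 from −0.31 to +0.15 and Snord80 from −0.52 to +0.32.

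In the without-selection table, library size only gave Snord34 −0.043, Snord47 −0.26, Snord49a −0.16 and Snord82 −0.23, miRNA scaling −0.045, −0.26, −0.16 and −0.21, C/D scaling Snord47 −0.070, and no filter Snord47 −0.027 and Snord82 −0.022. Without the 3 libraries Snord104 was +0.26, Snord118 +0.19 and Snord13 +0.060. With single animals left out, Snord104 ranged from −0.27 to +0.083, Snord118 from −0.40 to +0.27, Snord13 from −0.41 to +0.17, Snord47 from −0.091 to +0.18 and Snord82 from −0.11 to +0.41. Between tables, miRNA scaling gave Snord14c +0.83, Snord14d +0.84 and Snord14e +1.49. Beyond the scalings, the cause of these changes was not tested. In the without-selection table, of lower depth and lower C/D share, 45 of 82 members were below the filter, and changes in these were not tested.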
